A study of Mus musculus with 24 samples.

Results

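Magohb and 5 further genes of the exon junction complex, Magoh, Rbm8a, Eif4a3, Casc3 and Upf3b, were followed by their gene symbols through a table of 19953 genes from mouse embryonic stem cells that lack the histone methyltransferases MLL1, MLL2 or both. All 6 genes were found in the table. Polyadenylated RNA was sequenced from 24 libraries in 8 groups of 3. At day 4 the groups were double-KO, Mll2-KO, Mll1-KO and WT cells kept for 4 days with 1 µM retinoic acid and without leukemia inhibitory factor, and at day 0 the same 4 genotypes were stem cells grown with that factor. Mll1-KO cells were made by CRISPR deletion in a stem cell line whose Mll2 gene is removed by an inducible Cre, and Mll2-KO and double-KO cells were obtained by treating the lines with 800 nM 4-hydroxytamoxifen for 48 hours. The drug was given to Mll2-KO and double-KO cells only, so its effect and that of losing MLL2 cannot be told apart in any comparison of those cells with WT or Mll1-KO cells. The labels do not say whether a line is 1 clone, nor whether the 3 libraries of a group came from separate cultures, so the tests measure the spread between these libraries, which may be technical.

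The exon junction complex is a set of proteins that the spliceosome leaves on messenger RNA just upstream of each joined pair of exons. Its core is the RNA-clamping helicase EIF4A3, held closed on RNA by a heterodimer of a MAGO protein and RBM8A (also called Y14), with CASC3 (also called MLN51 or Barentsz) as a peripheral core protein. The complex carries splicing, export and localisation factors, and a complex left downstream of a stop codon recruits UPF3B, which links it to the decay of messages with premature stops, known as nonsense-mediated decay. Mammals carry a pair of MAGO genes, Magoh and Magohb, whose proteins are nearly the same and can both bind RBM8A.

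Libraries held 10748425 to 17138558 gene-assigned reads at day 4 and 17703443 to 22787858 at day 0. Kmt2a, which encodes MLL1, averaged 104 normalized counts in double-KO, 2362 in Mll2-KO, 55.9 in Mll1-KO and 2141 in WT cells at day 4, and 29.7 in double-KO, 1381 in Mll2-KO, 29.7 in Mll1-KO and 1089 in WT cells at day 0. Kmt2b, which encodes MLL2, averaged 2266 normalized counts in double-KO, 2502 in Mll2-KO, 2285 in Mll1-KO and 2269 in WT cells at day 4, and 2640 in double-KO, 2540 in Mll2-KO, 3379 in Mll1-KO and 2853 in WT cells at day 0. A count over the whole gene also takes reads from parts outside a deletion, so the Kmt2b counts do not check the Mll2-KO and double-KO labels. The summed level of 8 pluripotent stem cell markers lay between 104800 and 120500 normalized counts in the libraries of day 0, and at day 4 it was 4277 to 4504 in double-KO, 8080 to 9269 in Mll2-KO, 2839 to 3242 in Mll1-KO and 5408 to 6669 in WT cells. At day 4 the groups also differed in 8 primitive endoderm markers, whose sum was 18400 to 19320 in double-KO, 33360 to 34730 in Mll2-KO, 11840 to 12970 in Mll1-KO and 25770 to 26330 in WT cells, and in 8 fibroblast markers, with 14950 to 15710 in double-KO, 7214 to 8279 in Mll2-KO, 8637 to 9454 in Mll1-KO and 6261 to 6888 in WT cells. None of the 8 genes of either list was at 0 in any group at day 4. The endoderm sum differed at day 0 as well, with 788 to 896 in double-KO and 5046 to 5558 in Mll2-KO cells. It was 734 to 760 in Mll1-KO and 6002 to 6721 in WT cells at day 0. The sums weigh the most abundant gene most. Among the fibroblast markers the highest group mean was 12630 for Col3a1, and 1965 for Col1a1, the next. Among the endoderm markers it was 16130 for Cubn, and 5581 for Dab2, the next. A difference in such a sum is thus not a difference in all 8 markers. The part of any difference in cell makeup in the results below was not tested. In bulk RNA, fewer cells that express a gene and less RNA of it per cell cannot be told apart.

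Since the results turn on telling Magohb from Magoh, the 2 coding sequences were compared first. Magohb lies on chromosome 6 at 131284388 to 131293244 on the minus strand of mm10 (GENCODE M21), and Magoh on chromosome 4 at 107879755 to 107887424 on the plus strand. Their coding sequences are 444 and 438 bases long, and 356 of 438 aligned bases are identical (81.3%), with 82 mismatches and no identical run over 17 bases. The most similar genes of the set thus still differ often enough for reads to be assigned, as an aligned stretch of 120 coding bases shows, with its 20 mismatches in capitals (bases 235 to 354 of the Magohb and 229 to 348 of the Magoh coding sequence, 5′ to 3′).
Magohb: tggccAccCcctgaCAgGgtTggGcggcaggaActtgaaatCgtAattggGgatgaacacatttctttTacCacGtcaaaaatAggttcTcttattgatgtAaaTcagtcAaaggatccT
Magoh: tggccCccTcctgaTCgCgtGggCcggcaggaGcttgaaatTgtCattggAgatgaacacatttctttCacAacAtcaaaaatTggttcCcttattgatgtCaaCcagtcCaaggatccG
Of the 718 stretches of 50 bases in the Magohb transcript, 0 occurred in the annotated transcripts of another gene, and the same held for 0 of 643 in Magoh. Casc3 and Upf3b had none either. Only the main coding transcript of each gene was checked. That of Magohb has 767 bases, against 1720 bases of all its annotated exons merged, so its remaining exon sequence was not checked. For Rbm8a, 199 of 2555 stretches (7.8%) also occurred in its retrocopy Rbm8a2, and for Eif4a3, 356 of 1460 (24.4%) occurred in the gene models Gm5576, Gm5580 or Gm8994, so a part of the reads of these genes could be split between copies.

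Magohb was close to 0 at day 4 in cells without MLL2. The 3 double-KO libraries had 2.24, 3.07 and 4.56 normalized counts and the 3 Mll2-KO libraries 1.96, 5.10 and 3.27, against 95.6, 97.1 and 79.9 in Mll1-KO and 100.6, 103.3 and 75.4 in WT libraries. The 6 libraries without MLL2 lay far below the 6 with it, while double-KO and Mll2-KO values overlapped and so did Mll1-KO and WT values. These values rest on 8 reads in all 3 double-KO libraries, 10 in Mll2-KO, 213 in Mll1-KO and 266 in WT cells. Per unit of depth, double-KO cells were 28.5-fold lower than WT cells (95% exact interval 14.2 to 66.6, counting error only), and Mll2-KO cells were 27.4-fold lower (14.7 to 57.9). Between double-KO and Mll1-KO cells the ratio was 27.7 (13.8 to 64.9).

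On the scale of log2(normalized count + 1), which understates the change of a gene this low, the day 4 difference was -4.48 ± 0.32 (SE) in double-KO against WT cells (limma adjusted p = 1.3e-11) and -4.45 ± 0.32 in Mll2-KO against WT cells (adjusted p = 2.6e-11). These comparisons share the WT libraries. Double-KO against Mll1-KO cells gave -4.45 (adjusted p = 1.3e-11). Magohb passed the filter on low values at day 4 through its WT and Mll1-KO libraries alone. With no filter, its calls were the same in all 19 comparisons. Only 16 of 14303 genes tested, Magohb included, had a log2 difference this low or lower in Mll2-KO against WT cells, and 20 had one in double-KO against WT cells. Magohb was chosen with earlier results of these data known, so these ranks are a description and not a test. No difference in Magohb with the loss of MLL1 was detectable at day 4. Mll1-KO against WT cells gave -0.03 with an interval of -0.68 to 0.63 (adjusted p = 0.96), and double-KO against Mll2-KO cells gave -0.02 with an interval of -0.68 to 0.63 (adjusted p = 0.96).

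**Figure D1:**
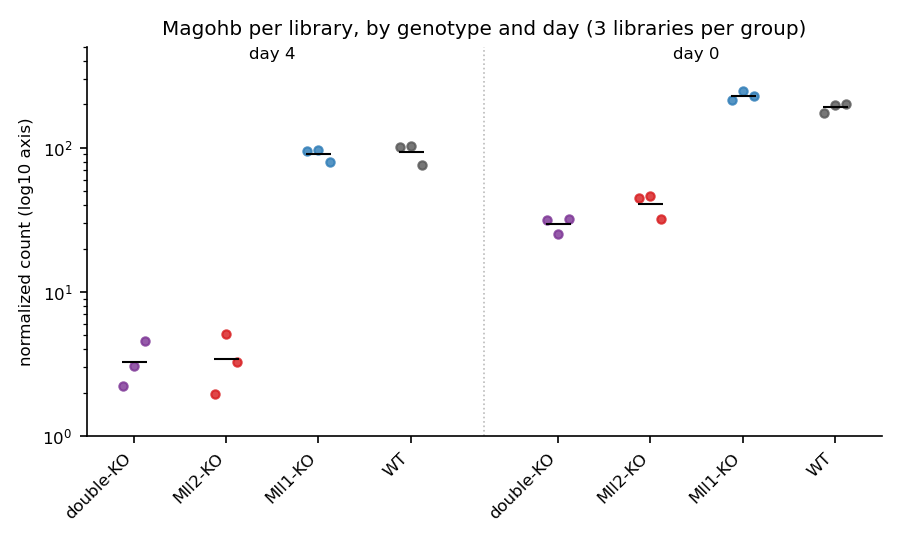
Normalized counts of Magohb per library (log10 axis) by genotype, with day 4 on the left and day 0 on the right; points are libraries and bars are means of 3. All double-KO and Mll2-KO libraries lie below all Mll1-KO and WT libraries of the same day, with 1.96 to 5.10 normalized counts at day 4.

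At day 0 Magohb was lower in the same 2 genotypes but still readily counted. Double-KO libraries had 31.6, 25.3 and 31.8 normalized counts and Mll2-KO libraries 44.8, 46.0 and 32.0, against 215.1, 247.0 and 228.5 in Mll1-KO and 175.3, 199.0 and 199.6 in WT libraries. The 2 genotypes without MLL2 did not overlap the 2 with it. Double-KO cells were 6.5-fold lower than WT cells by reads (5.27 to 8.1), with a log2 difference of -2.66 ± 0.17 (adjusted p = 8.1e-11). For Mll2-KO against WT cells the ratio was 4.71 (3.95 to 5.65) and the log2 difference -2.21 ± 0.17 (adjusted p = 2.6e-09). Double-KO against Mll1-KO cells differed by -2.93 ± 0.17 (adjusted p = 1.5e-10). At this day 131 of 13984 genes were as low or lower in Mll2-KO against WT cells, so the loss of Magohb was less extreme among all genes than at day 4.

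At day 0 the differences in Magohb that go with the loss of MLL1 were smaller than those that go with the loss of MLL2. Double-KO cells had less Magohb than Mll2-KO cells, by -0.45 ± 0.17 (adjusted p = 0.035), and the 2 groups did not overlap, with 25.3 to 31.8 normalized counts in double-KO and 32.0 to 46.0 in Mll2-KO libraries. That call was lost by edgeR (adjusted p = 0.052), by DESeq2 (0.075), with quantile scaling (0.22), with only the libraries compared (0.18), and without Mll2-KO replicate 1 (0.11), Mll2-KO replicate 2 (0.13) or double-KO replicate 2 (0.13). Mll1-KO against WT cells gave 0.27 with an interval of -0.09 to 0.62 (adjusted p = 0.23). The test of whether the Mll2-KO effect differs with and without MLL1 gave -0.71 ± 0.24 at day 0 (adjusted p = 0.067; without Mll2-KO replicate 3, -0.88 with adjusted p = 0.014) and 0.0 at day 4 (interval -0.92 to 0.92, adjusted p = 1.0).

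Magohb was lower at day 4 than at day 0 in every genotype, and by more where MLL2 was missing. Day 4 against day 0 gave -2.86 ± 0.25 in double-KO (adjusted p = 2.1e-11), -3.28 ± 0.25 in Mll2-KO (1.3e-12), -1.33 ± 0.25 in Mll1-KO (1.7e-05) and -1.04 ± 0.25 in WT cells (0.00037). By reads, day 4 cells were 8.91-fold lower than day 0 cells in double-KO (4.35 to 21.2), 11.9-fold in Mll2-KO (6.27 to 25.2), 2.52-fold in Mll1-KO (2.16 to 2.95) and 2.04-fold in WT cells (1.77 to 2.35). The difference between the mutant and WT effects across days was itself tested and is given below. The time from drug treatment to harvest at each day is not given here. In Mll2-KO and double-KO cells the day and the time without MLL2 thus cannot be told apart, in these values or in that test.

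Magohb made up a minor share of the MAGO messages in all groups. Per kilobase of coding sequence, Magohb averaged 7.41 ± 2.65 in double-KO, 7.76 ± 3.55 in Mll2-KO, 205 ± 21.5 in Mll1-KO and 210 ± 34.6 normalized counts in WT cells at day 4 (SD, n = 3 each), and Magoh averaged 2409 ± 238 in double-KO, 2760 ± 55.2 in Mll2-KO, 2419 ± 136 in Mll1-KO and 2826 ± 170 in WT cells. Magohb was thus 0.316% ± 0.15 of the summed level of both genes in double-KO and 0.282% ± 0.13 in Mll2-KO cells, against 7.83% ± 1.1 in Mll1-KO and 6.91% ± 1.1 in WT cells. At day 0 the share was 1.81% ± 0.22 in double-KO and 3.04% ± 0.34 in Mll2-KO, against 9.77% ± 0.5 in Mll1-KO and 9.99% ± 1.0 in WT cells. The size of the share depends on the length used: per merged exon length, a choice made after seeing the data, it was 0.144% in double-KO, 0.128% in Mll2-KO, 3.71% in Mll1-KO and 3.26% in WT cells at day 4. The choice of length scales the ratio of Magohb to Magoh by the same factor in every group, so it bears on the size of the share and not on the order of the groups.

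MLL2 is known to bind CpG-rich promoters through a CXXC domain, so the 250 bases before the start of each MAGO gene are shown, from RefSeq (GRCm38.p6), with every CG in capitals. No binding or methylation was measured here.
Magohb promoter, chr6:131293245-131293494, minus strand: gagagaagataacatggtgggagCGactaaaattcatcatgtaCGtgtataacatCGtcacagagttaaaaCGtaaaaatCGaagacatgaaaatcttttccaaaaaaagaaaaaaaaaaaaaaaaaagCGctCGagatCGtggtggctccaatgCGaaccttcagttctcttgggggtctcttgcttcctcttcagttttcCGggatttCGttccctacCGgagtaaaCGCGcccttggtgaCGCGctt
Magoh promoter, chr4:107879505-107879754, plus strand: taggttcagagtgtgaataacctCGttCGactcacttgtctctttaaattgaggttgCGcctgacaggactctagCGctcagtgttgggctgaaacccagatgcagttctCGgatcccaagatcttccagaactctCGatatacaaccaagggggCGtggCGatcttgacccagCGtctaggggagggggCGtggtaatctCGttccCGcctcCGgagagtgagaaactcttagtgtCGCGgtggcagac
The Magohb window holds 16 CG and the Magoh window 15 (counted on this strand; CG reads the same on both). Of 32851 promoters of the same length, 25.4% held at least as many as Magohb and 27.3% as many as Magoh. The 2 windows thus hardly differ in CG number, although the GC content was 42.8% for Magohb and 54.0% for Magoh. They do differ in the ratio of the CG number to that expected from their C and G content. This ratio was 1.4 for Magohb and 0.83 for Magoh. RefSeq's table also held Eif4a3, with 36 CG, and Upf3b, with 16.

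The genes around Magohb were looked at in the same comparisons. The annotation lists 34 genes that start within 500 kb of the Magohb start, of which 3 were in the table. Styk1, a kinase-like gene on the upstream side, was nearly absent at day 0 and averaged 28.5 in double-KO, 18.7 in Mll2-KO, 74.7 in Mll1-KO and 33.4 normalized counts in WT cells at day 4. Its Mll2-KO against WT difference at day 4 was -0.69 (adjusted p = 0.084), and double-KO against WT gave -0.11 (0.80). Styk1 was lower in double-KO than in Mll1-KO cells, by -1.38 (adjusted p = 0.00082), and higher in Mll1-KO than in WT cells, by 1.27 (adjusted p = 0.0031). Ybx3, which encodes a cold-shock domain protein, differed by 0.06 in Mll2-KO against WT cells at day 4 (adjusted p = 0.29). In Mll2-KO against WT cells at day 0 it differed by -0.17 (adjusted p = 0.0052). The third, 5430401F13Rik, was at or near 0 in every library. Magohb itself gave -4.45 in Mll2-KO against WT cells at day 4.

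Magoh, the second MAGO gene, changed far less than Magohb. At day 4 it had 1133, 1096 and 936 normalized counts in double-KO, 1237, 1192 and 1198 in Mll2-KO, 994, 1074 and 1111 in Mll1-KO and 1164, 1312 and 1237 in WT libraries. Mll2-KO and WT values overlapped, and the difference was -0.03 with an interval of -0.16 to 0.10 (adjusted p = 0.71). Magoh was lower than in WT cells in double-KO cells, by -0.23 (adjusted p = 0.0032), and in Mll1-KO cells, by -0.22 (adjusted p = 0.007; 0.056 without WT replicate 2 and 0.063 with no filter on low values). It was also lower in double-KO than in Mll2-KO cells, by -0.20 (adjusted p = 0.013; 0.14 without double-KO replicate 3, 0.052 without Mll2-KO replicate 1 and 0.081 with no filter). Magoh was thus not called higher in any group with low Magohb at day 4.

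At day 0 Magoh had 1661, 1553 and 1527 normalized counts in double-KO, 1346, 1332 and 1157 in Mll2-KO, 2090, 2221 and 1984 in Mll1-KO and 1797, 1646 and 1672 in WT libraries. Mll2-KO libraries were the lowest and Mll1-KO libraries the highest, with no overlap with WT. The difference from WT was -0.42 ± 0.063 in Mll2-KO (adjusted p = 1.9e-05), 0.30 ± 0.063 in Mll1-KO (0.00073) and -0.11 in double-KO cells (0.15; 0.031 with column totals and 0.02 with quantile scaling). Both MAGO genes were therefore lower in Mll2-KO than in WT cells at day 0, by unequal amounts.

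Rbm8a, on chromosome 3 at 96629933 to 96633791, encodes the partner that both MAGO proteins bind. At day 4 it had 1858, 1933 and 1730 normalized counts in double-KO, 1986, 1981 and 2028 in Mll2-KO, 1840, 1800 and 1777 in Mll1-KO and 1906, 2127 and 1958 in WT libraries. Mll2-KO cells differed from WT by 0.0 (interval -0.10 to 0.10). Double-KO cells were lower than WT by -0.12 (adjusted p = 0.044), with overlapping libraries, and lower than Mll2-KO by -0.12 (adjusted p = 0.049). Both calls were lost under several alternatives, among them no filter (0.083 and 0.098) and leaving out double-KO replicate 3 (0.24 and 0.26) or replicate 1 (0.06 and 0.068). The first was also lost without WT replicate 2 (0.27) or 3 (0.053), and the second without any Mll2-KO library (0.077 to 0.13). Mll1-KO cells were lower than WT by -0.14 (adjusted p = 0.021; 0.16 without WT replicate 2, 0.055 and 0.069 without Mll1-KO replicate 2 or 3, 0.12 with column totals).

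At day 0 Rbm8a averaged 3766 ± 158 in double-KO, 3555 ± 57.6 in Mll2-KO, 4626 ± 212 in Mll1-KO and 4077 ± 89.5 normalized counts in WT cells (SD, n = 3 each). It was lower than in WT in Mll2-KO cells, by -0.20 (adjusted p = 0.0015), and in double-KO cells, by -0.11 (adjusted p = 0.042, lost without WT replicate 1, 2 or 3 or double-KO replicate 2 or 3, at 0.063 to 0.18). It was higher in Mll1-KO cells, by 0.18 (adjusted p = 0.0036), a call that column totals (0.059) and quantile scaling (0.42) ended.

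Eif4a3, the helicase of the core, lies on chromosome 11 at 119288363 to 119300089. At day 4 its groups averaged 2695 ± 203 in double-KO, 2724 ± 81.8 in Mll2-KO, 2636 ± 114 in Mll1-KO and 2623 ± 187 normalized counts in WT cells, and their libraries overlapped. No genotype was called against WT, with intervals of -0.07 to 0.15 in double-KO, -0.05 to 0.17 in Mll2-KO and -0.10 to 0.12 in Mll1-KO cells. At day 0 it averaged 4170 ± 83.2 in double-KO, 3900 ± 183 in Mll2-KO, 5165 ± 259 in Mll1-KO and 4776 ± 266 in WT cells. Double-KO cells were lower than WT by -0.19 (adjusted p = 0.0032) and Mll2-KO cells by -0.29 (adjusted p = 9.9e-05). Mll1-KO cells gave 0.11 (adjusted p = 0.084; 0.034 without Mll1-KO replicate 3).

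Casc3, the peripheral core gene, lies on chromosome 11 at 98804905 to 98833814 and went the other way from the rest of the core at day 0. Its libraries had 1439, 1415 and 1462 normalized counts in double-KO and 1407, 1373 and 1411 in Mll2-KO, against 1233, 1229 and 1124 in Mll1-KO and 1185, 1219 and 1173 in WT cells. The libraries without MLL2 were all above those with it. The difference from WT was 0.27 in double-KO (adjusted p = 0.0002) and 0.23 in Mll2-KO cells (adjusted p = 0.0013). At day 4 Casc3 averaged 1786 ± 79.9 in double-KO, 1948 ± 31.8 in Mll2-KO, 1760 ± 1.54 in Mll1-KO and 1891 ± 20.0 in WT cells. It was lower in double-KO than in Mll2-KO cells, by -0.13 (adjusted p = 0.021; 0.14 without double-KO replicate 2, 0.059 and 0.07 without Mll2-KO replicate 1 or 3, 0.077 with column totals). Double-KO against WT gave -0.08 (adjusted p = 0.11; 0.0076 with column totals, 0.0033 with quantile scaling and 0.048 with no filter), and Mll1-KO against WT -0.10 (0.063; 0.03 with no filter).

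Upf3b, the link to nonsense-mediated decay, lies on the X chromosome at 37091678 to 37110322. At day 4 it had 457, 452 and 417 normalized counts in double-KO, 343, 375 and 366 in Mll2-KO, 397, 379 and 416 in Mll1-KO and 402, 368 and 349 in WT libraries. Double-KO libraries were the highest, above all Mll2-KO and WT libraries. Double-KO cells were higher than WT by 0.25 (adjusted p = 0.0081; 0.052 without WT replicate 3) and higher than Mll2-KO by 0.29 (adjusted p = 0.003). At day 0 the group averages were 521 ± 22.8 in double-KO, 436 ± 18.0 in Mll2-KO, 538 ± 15.0 in Mll1-KO and 486 ± 35.2 in WT cells, and double-KO was again higher than Mll2-KO, by 0.26 (adjusted p = 0.007). Mll2-KO against WT gave -0.15 at day 0 (adjusted p = 0.092; 0.049 with quantile scaling). Upf3a, its paralog, was not called in double-KO against Mll2-KO cells at day 4 or at day 0.

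**Figure D2:**
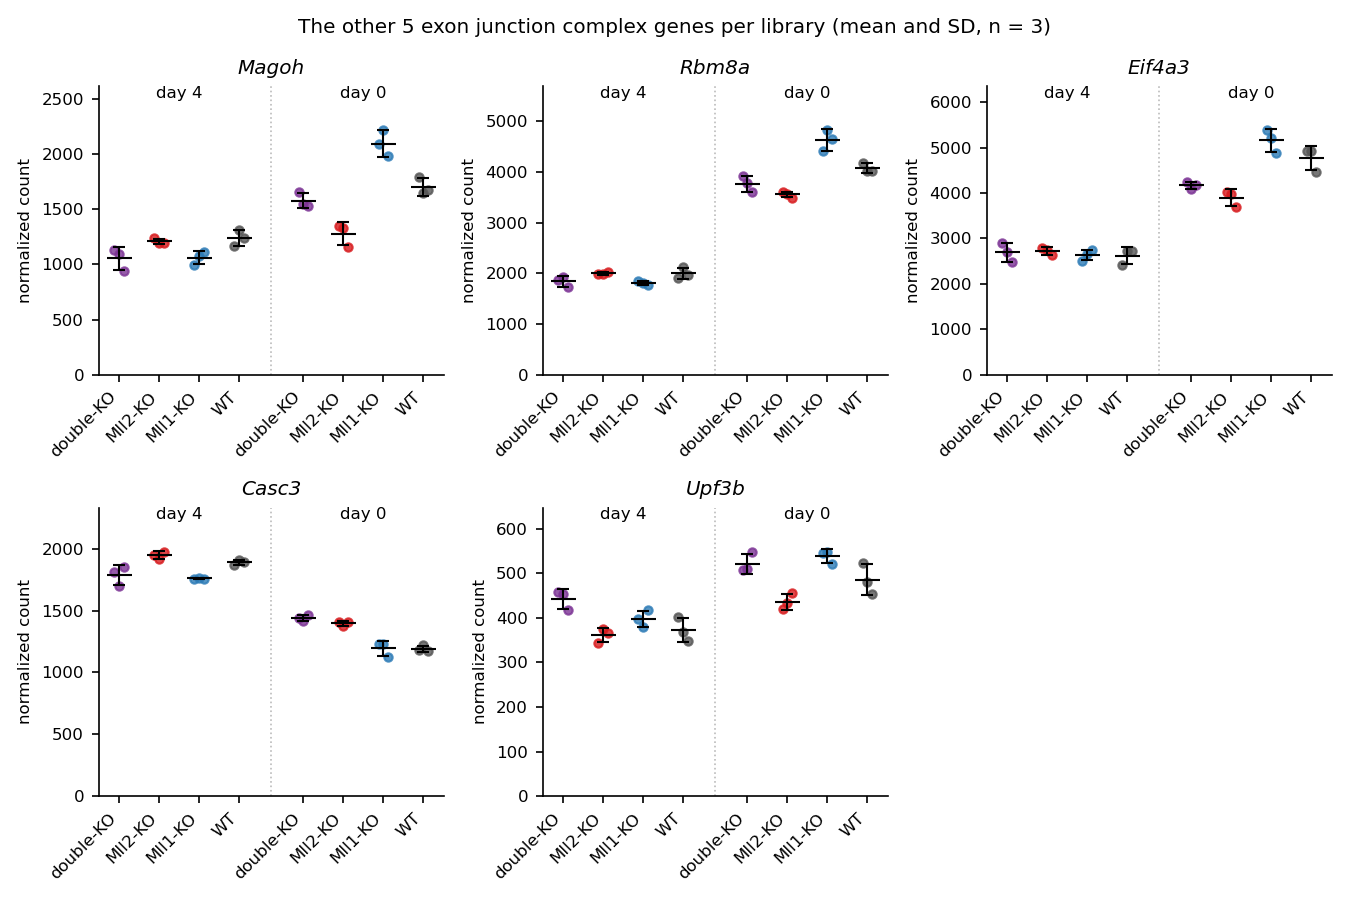
Normalized counts of Magoh, Rbm8a, Eif4a3, Casc3 and Upf3b per library, by genotype, with day 4 left and day 0 right in each panel; points are libraries, bars are the mean and SD of 3. Magoh, Rbm8a, Eif4a3 and Upf3b lie lower at day 4 than at day 0 in WT cells and Casc3 lies higher.

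Counted over the 6 genes, Mll2-KO cells differed from WT in Magohb at day 4 and in all but Upf3b at day 0, and Mll1-KO cells in Magoh and Rbm8a on both days. In Mll2-KO against WT cells at day 4, 0 of 6 were called higher (25.4% of all genes tested) and 1 lower, Magohb (20.3%). In double-KO against WT at day 4, 1 was higher (27.6%) and 3 lower (23.3%). Mll1-KO against WT at day 4 had 0 higher (16.5%) and 2 lower (19.2%). The members' median was -0.02 in Mll2-KO cells (0.04 over all genes), -0.10 in double-KO cells (0.03) and -0.06 in Mll1-KO cells (0.0).

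Against Mll1-KO at day 4, double-KO cells had 0 members higher (31.1% of all genes) and 1 lower (23.7%), and against Mll2-KO they had 1 higher (19.4%) and 3 lower (20.9%). At day 0, Mll2-KO against WT had 1 of 6 higher (22.8%) and 4 lower (24.3%), double-KO against WT 1 higher (26.6%) and 3 lower (27.1%), and Mll1-KO against WT 2 higher (21.3%) and 0 lower (18.7%). Double-KO against Mll1-KO at day 0 had 1 higher (18.9%) and 4 lower (22%), and double-KO against Mll2-KO had 2 higher (23.4%) and 1 lower (24.3%). The counts of 3 or 4 of 6 lower lie above the background shares, but they hold few genes and differences under 0.5 apart from Magohb. None of the 6 was called for non-additivity by limma at either day, where 9.13% of genes were called at day 0 and 13.6% at day 4. Magohb at day 0 was the only member with an unadjusted p under 0.05 there, and edgeR and DESeq2 also called none.

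The split of all called genes depended on the scaling. With column totals in place of the deposited size factors, 14.3% of genes were higher and 27.2% lower in Mll2-KO against WT at day 4, 20.3% and 28.7% in double-KO against WT, 18.8% and 33.1% in double-KO against Mll1-KO, and 21.9% and 14.4% in Mll1-KO against WT. At day 0 they were 15.5% and 24.3% in Mll1-KO against WT and 18.3% and 29.8% in double-KO against Mll2-KO. No called difference of a member changed sign under any alternative.

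**Figure D3:**
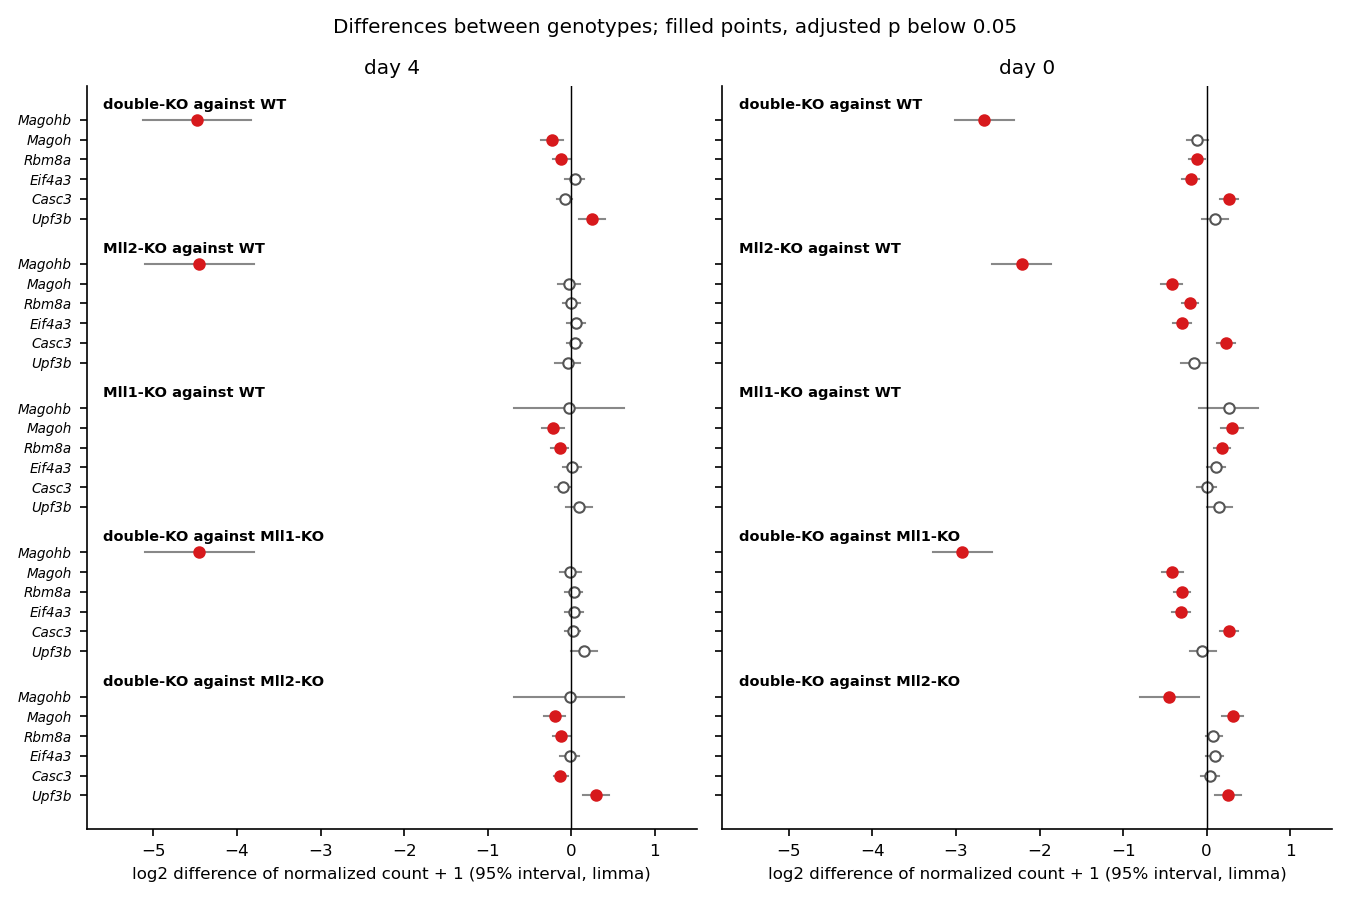
Log2 differences of normalized count + 1 with 95% intervals (limma) of the 6 genes in 5 comparisons between genotypes, day 4 left and day 0 right; filled points have an adjusted p below 0.05. Magohb lies between -4.48 and -2.21 in each comparison of cells without MLL2 with WT or Mll1-KO cells, and the other 5 genes stay within 0.42 of 0.

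**Figure D4:**
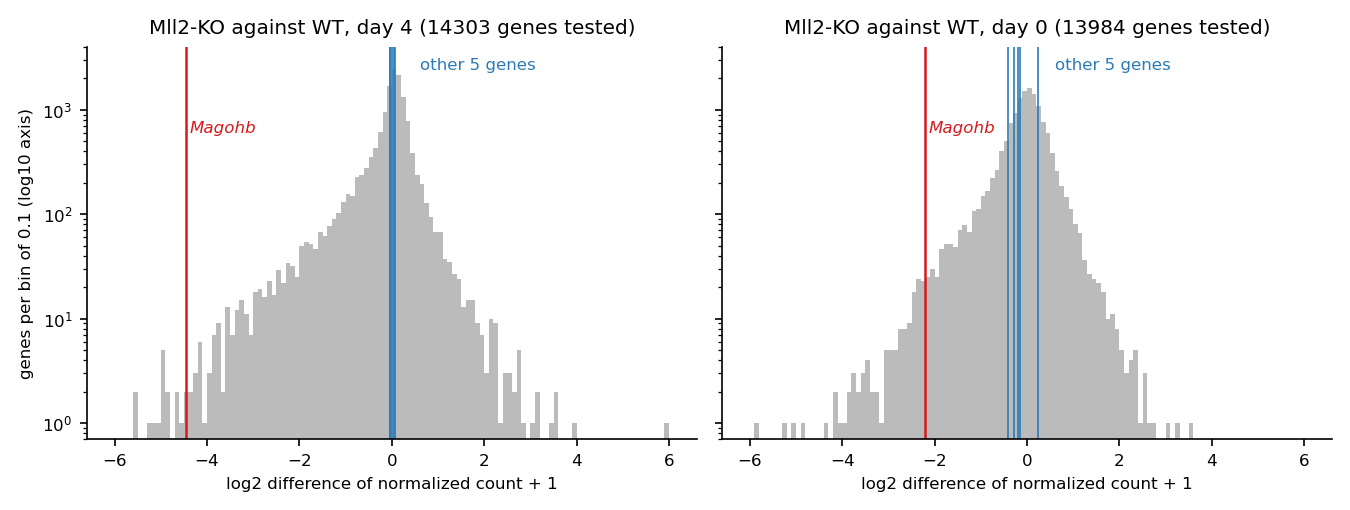
Number of genes per bin of 0.1 of the log2 difference (log10 axis) in Mll2-KO against WT cells at day 4 (14303 genes) and day 0 (13984 genes). The line of Magohb stands at -4.45 at day 4 and -2.21 at day 0, in the lower tail of all genes, and the other 5 lines stand in the central peak.

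Between days, most of the complex fell and Casc3 rose, in all genotypes. Against day 0, double-KO cells at day 4 had 1 of 6 genes higher (43.2% of all genes) and 5 lower (40.1%), Mll2-KO cells 1 higher (41.9%) and 4 lower (39.6%), with Magoh not called, Mll1-KO cells 1 higher (43.7%) and 5 lower (40.4%), and WT cells 1 higher (43%) and 5 lower (39.9%). The called shares of all genes are large, so a call between days is no result about these 6 genes. On the log2 scale, Rbm8a fell by 1.03 in double-KO, 0.83 in Mll2-KO, 1.36 in Mll1-KO and 1.03 in WT cells (limma adjusted p of 1.6e-15 or less). Eif4a3 fell by 0.63 in double-KO, 0.52 in Mll2-KO, 0.97 in Mll1-KO and 0.87 in WT cells. Casc3 rose by 0.31 in double-KO, 0.48 in Mll2-KO, 0.56 in Mll1-KO and 0.66 in WT cells.

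Magoh fell by 0.59 in double-KO (adjusted p = 7.1e-09), 0.98 in Mll1-KO (1.3e-13) and 0.46 in WT cells (5.1e-07), and gave -0.08 in Mll2-KO cells (0.29). Upf3b fell by 0.24 in double-KO (0.0034, and 0.12 with column totals), 0.27 in Mll2-KO, 0.44 in Mll1-KO and 0.38 in WT cells. The median of all genes was 0.06 in Mll1-KO and 0.04 in WT cells. Read against it, the falls are slightly larger and the rise of Casc3 slightly smaller. The median was 0.29 in Mll1-KO and 0.17 in WT cells with column totals, and -0.11 and -0.10 with quantile scaling. The values of the members also change with the scaling, so the medians of those scalings are not set against the values above.

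Whether a mutant's difference from WT changed with the day was tested as an interaction. Over all genes, 36.3% were called for Mll2-KO, 39.4% for double-KO and 34% for Mll1-KO cells. For Mll2-KO, 5 of 6 members were called, for double-KO 3 and for Mll1-KO 2. Magohb had -2.24 ± 0.35 for Mll2-KO (adjusted p = 1.4e-05) and -1.82 ± 0.35 for double-KO cells (0.00015), which is a larger loss at day 4 than at day 0, and -0.29 for Mll1-KO cells (0.56).

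The partners of the complex were followed through lists chosen with earlier results of these data known. Their counts in Mll2-KO against WT cells stand beside the shares of all genes called, 25.4% higher and 20.3% lower at day 4 and 22.8% higher and 24.3% lower at day 0, and with so few genes a list a count near these shares is no result about the list. Of 3 genes that load or remove the complex, 0 were called in Mll2-KO against WT cells at day 4, and 1 was higher at day 0, Cwc27, a spliceosomal protein, by 0.24 (adjusted p = 0.014). Pym1, which takes the complex off translated messages, gave 0.10 at day 4 (adjusted p = 0.26), and its day 0 value was 0.02 (0.81). Of 7 splicing partners, 3 were higher and 1 lower at day 4, and 0 higher and 4 lower at day 0. Acin1 rose by 0.12 (adjusted p = 0.025) and Sap18 had the lowest value, -0.34 (adjusted p = 0.013), at day 4, and Sap18b had the lowest at day 0, -0.37 (adjusted p = 3.2e-06). Sap18 and Sap18b are near-identical copies, so their counts are uncertain.

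Of 10 measured export partners, 2 were higher and 0 lower at day 4, led by Alyref, an export adaptor, with 0.14 (adjusted p = 0.049), and 2 were higher and 4 lower at day 0, against the same shares of all genes. At day 0 Thoc2, a subunit of the THO complex, rose by 0.19 (adjusted p = 0.0097) and Nxt1, a partner of the export receptor, fell by 0.33 (adjusted p = 0.0017). In Mll2-KO against WT cells at day 4, the median was 0.0 for the loading, 0.07 for the splicing and 0.03 for the export list, beside 0.04 over all genes. At day 0 it was 0.03 for the loading, -0.19 for the splicing and -0.11 for the export list, beside 0.0 over all genes. Among the retrocopies of core genes, Eif4a3l1 alone passed the filter on low values, at day 4, through its 3 WT libraries and 1 double-KO library. It had 0.98, 6.12 and 4.37 normalized counts in Mll2-KO and 11.2, 17.0 and 17.7 in WT libraries, and since the WT values let it pass, no test is read from them. Rbm8a2, Eif4a3l2, Magoh-ps1 and, among export factors, Ddx39a were not analysed here.

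Nonsense-mediated decay was read from its factors and from 13 transcripts that it is known to degrade. Smg5 and Upf2 stand in both lists and Upf3b stands among the factors, so the counts are not independent. Of 16 factors, 3 were higher and 0 lower in Mll2-KO against WT cells at day 4, led by Nbas with 0.30 (adjusted p = 0.00012), and 6 were higher and 4 lower at day 0, beside 25.4% higher and 20.3% lower of all genes at day 4 and 22.8% and 24.3% at day 0. At day 0 the largest rise was that of Smg6, with 0.44. Smg9, a subunit of the SMG1 kinase complex, came next and also rose by 0.44 after rounding (adjusted p = 0.00017). Ncbp2, a subunit of the nuclear cap-binding complex, fell by 0.56 at day 0 (adjusted p = 8.5e-06). Upf3a, the paralog of Upf3b, gave 0.08 at day 4 (adjusted p = 0.37), and its day 0 value was 0.11 (0.25).

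Of the 13 degraded transcripts, 7 were higher and 1 lower in Mll2-KO against WT cells at day 4 (median 0.23), and 10 were higher and 2 lower at day 0 (median 0.67), beside 25.4% and 20.3%, and 22.8% and 24.3%, of all genes. At day 4 the largest rise was Gas5, a spliced host of small nucleolar RNAs, with 0.48 (adjusted p = 1.5e-06), and Gadd45b fell by 0.44 (adjusted p = 1.4e-05). Ddit3, a transcription factor of the stress response, had 1143, 1097 and 1681 normalized counts in Mll2-KO against 241, 256 and 273 in WT libraries at day 0, with a difference of 2.32 ± 0.12 (adjusted p = 7.3e-12). Tbl2 fell by 0.65 at day 0 (adjusted p = 1.3e-07). Several of these transcripts, such as Ddit3, Atf4 and Gadd45a, are also induced by cell stress. In double-KO against WT cells 8 were higher (27.6% of all genes) and 0 lower (23.3%) at day 4, with a median of 0.31, and 7 higher (26.6%) and 2 lower (27.1%) at day 0, with a median of 0.25. In Mll1-KO against WT cells 1 was higher (16.5%) and 3 lower (19.2%) at day 4, and 2 higher (21.3%) and 4 lower (18.7%) at day 0. The part of 4-hydroxytamoxifen, of stress and of the exon junction complex in these values was not tested.

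The 8 genes whose group means followed those of Magohb most closely were found among 4012 genes with enough expression and range. They were chosen for that pattern, so their values are a description, and 8 group means of 1 table share their libraries. Tex15, which is needed for meiosis and transposon silencing in the male germline, came first (r = 0.992), with means of 61.1 in double-KO, 85.1 in Mll2-KO, 325 in Mll1-KO and 299 normalized counts in WT cells at day 4. Maoa, a monoamine oxidase (0.975), Uprt (0.974), Cdca7l (0.971), Usp51 (0.971), Tcaf2 (0.97), Setmar (0.968) and Xk (0.963) followed. Of these 8, 4 lie on the X chromosome, where 194 of 3946 placed candidates (4.92%) lie. The candidates include unnamed gene models, which the 8 leave out, so these shares are not like for like and are no test. Magohb had the widest range of the 9 profiles. The other exon junction complex genes resembled it less, with r of 0.608 for Magoh, 0.569 for Eif4a3, 0.557 for Rbm8a, 0.408 for Upf3b and -0.642 for Casc3.

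**Figure D5:**
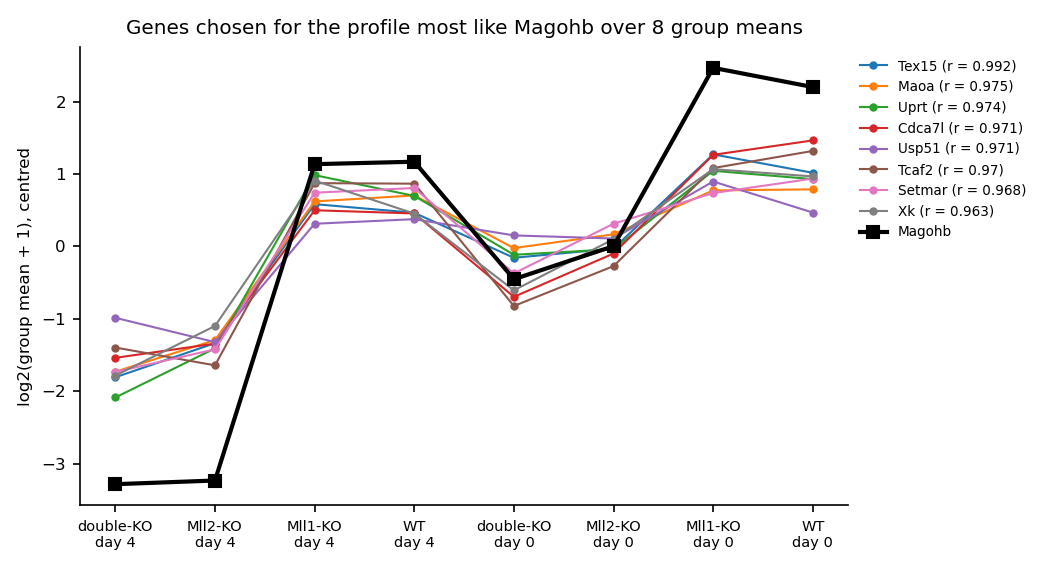
Group means of Magohb and of the 8 genes chosen for the most similar profile, as log2(mean + 1) centred on each gene's average, for the 4 genotypes at day 4 and then at day 0. All 9 lines are lower in double-KO and Mll2-KO than in Mll1-KO and WT cells of the same day, and Magohb spans the widest range.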

How the data were processed

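RNA was sequenced from 24 libraries in 8 groups of 3, grouped by their labels. The authors deposited 1 table of normalized counts for 19953 genes, in which each gene's read count is divided by 1 factor per library (unit: signal per gene). STAR 2.7.10a, RSEM 1.3.1, DESeq2 1.34.0, SAMtools 1.13, Trim Galore 3.4 and FastQC were applied with build mm10, as the submitters' processing notes list, and the gene annotation is not given in the sources used here. Dividing each column by its smallest step gave whole reads for 100.0% of values (tolerance 1e-06), which set the depths and intervals and entered edgeR and DESeq2.

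Genes with at least 10 normalized counts in 3 or more libraries entered limma's trended fit (limma 3.58.1, R 4.3.3) of log2(normalized count + 1). The 12 libraries of a day entered each within-day fit, and all 24 the fits across days. Calls used Benjamini-Hochberg adjustment over all genes tested, with a threshold of 0.05. Per-library totals limit the precision at low counts, and the intervals on Magohb ratios, at 95%, cover counting error only. Library sizes differed between days, and a fold change is relative to the deposited factors.

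Alternatives changed the pseudocount (0.5, 5), dropped the filter or raised it to 50, or used scaling to column totals or quantiles, edgeR 4.0.16 (quasi-likelihood, TMM), DESeq2 1.42.0, a replicate block, the compared libraries alone and each library left out. Scripts were tested on simulated data.

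The 6 members and all lists were chosen with earlier results of these data known. From the partner lists, the called genes with the largest rise and fall in Mll2-KO against WT cells of each day are named, with Upf3a and Pym1, the tested neighbours of Magohb, and the 8 genes most like Magohb by Pearson r over group means of genes with at least 50 normalized counts in their highest group and a log2 range of at least 2 that are not unnamed gene models. Ddit3 per library was added to these. Coordinates, transcripts and coding lengths come from GENCODE M21 on mm10, and promoters from RefSeq.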

Additional observations from a re-analysis of the deposited data

Results flagged for a closer look

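In 10 cases the difference of a mutant from WT cells was not the same at both days by the limma test of the interaction, given as the day 4 difference minus the day 0 difference in log2, with adjusted p over 15114 genes. Over all genes such a call is common, at 36.3% for Mll2-KO, 39.4% for double-KO and 34% for Mll1-KO cells.

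Magohb gave -2.24 (1.4e-05) for Mll2-KO and -1.82 (0.00015) for double-KO cells, with the lower level at both days and the larger difference at day 4. For Mll2-KO cells, Magoh gave 0.39 (0.0024), Eif4a3 0.35 (0.0012) and Rbm8a 0.20 (0.018), 3 genes that were lower than in WT at day 0 and were not called at day 4. The Rbm8a value missed the threshold with column totals (0.21), quantile scaling (0.26), edgeR (0.056) and without day 4 WT replicate 1 (0.059). Casc3 gave -0.19 (0.016) for Mll2-KO and -0.35 (2.8e-05) for double-KO cells, being higher than in WT at day 0 and not called at day 4. Eif4a3 gave 0.23 (0.022) for double-KO cells, a call that ended without day 0 WT replicate 1 (0.056) or 2 (0.058), day 4 WT replicate 1 (0.087) or day 4 double-KO replicate 1 (0.082). For Mll1-KO cells, Magoh gave -0.52 (0.00011) and Rbm8a -0.33 (0.0003), both higher than in WT at day 0 and lower at day 4.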

How the results depend on the processing

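Magohb kept its side of the threshold in 322 of 331 alternatives over 19 comparisons, and the other 5 genes in 1602 of 1660, with 49 calls lost and 9 gained. No called difference changed sign, while differences near 0 that were not called did, such as Magohb in Mll1-KO against WT cells at day 4 (-0.17 to 0.06). For double-KO against Mll2-KO cells at day 0, Magohb was -0.24 with quantile scaling (adjusted p = 0.22), -0.48 by edgeR (0.052), -0.47 by DESeq2 (0.075) and -0.45 with the compared libraries alone (0.18), and between -0.61 and -0.34 with 1 library left out. Its non-additivity at day 0 ranged from -0.88 to -0.61 with 1 library left out, and its Mll1-KO against WT value of 0.27 at day 0 reached an adjusted p of 0.042 with the compared libraries alone. The cause was not tested. In Mll2-KO against WT cells at day 4, Magohb ranged from -4.79 to -3.54 over the alternatives.

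Replicate numbers showed little pairing of the libraries. The deviations of same-numbered libraries of different groups had a median correlation of 0.003 (-0.045 to 0.077, 84 pairs). For 13 of 24 libraries, the mean correlation with libraries of other groups was highest for their own number. That is more than an even split over the replicate numbers would give. The replicate block gave -4.45 for Magohb in Mll2-KO against WT cells at day 4 and -2.21 at day 0, and moved counts of called genes by 0.92 to 1.17 times. With it, 1 member call was lost, Rbm8a in double-KO against Mll2-KO cells at day 4 (0.053), and 1 gained, Eif4a3 in Mll1-KO against WT cells at day 0 (0.04).

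Over all genes, non-additivity was called for 702 in place of 1277 genes at day 0 and 1068 in place of 1951 at day 4 without the filter, and for 1262 at day 4 without Mll2-KO replicate 2. Without day 0 WT replicate 2, 428 in place of 659 genes were lower for non-additivity at day 0. Column totals gave 2045 in place of 3634 genes higher in Mll2-KO against WT and 2684 in place of 4443 in double-KO against Mll1-KO cells at day 4, and 1793 in place of 2876 lower for the interaction of day and Mll1-KO. They also moved the share of interaction calls that were higher to 64.7% from 44.0% for Mll1-KO and to 37.5% from 53.2% for Mll2-KO. Magohb rests on 2 to 5 reads per library in double-KO and Mll2-KO cells at day 4, so differences between those groups are within a counting interval of 0.369 to 3.03 for Mll2-KO over double-KO.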
